A study of Homo sapiens with 6 samples.

Results

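The caveolins, flotillins and EH domain-containing (EHD) proteins shape the plasma membrane and sort receptors on endosomes. Their RNAs were examined here in a T-cell leukaemia line treated with a CDK4/6 inhibitor. The members are 8 genes, CAV1, CAV2, FLOT1, FLOT2, EHD1, EHD2, EHD3 and EHD4, taken as every probe set whose platform annotation gives 1 gene symbol and that symbol is one of these, which found 29 probe sets of 54613 that are not controls, and 8 genes of 19775. The family was chosen by the values of CAV1, which was lower, and EHD3, which was higher after the inhibitor, so the members' values in this contrast are a description, and where calls of the fit over all genes or probe sets are counted for them, the counts support nothing. Total RNA came from the human line KOPTK1, an established culture of T-ALL, acute lymphoblastic leukaemia of T cells. One group of cultures received vehicle (n = 3) and the other 1 µM PD0332991 (n = 3), both for 48 h, and the submitters describe biological triplicates. PD0332991, also named palbociclib, inhibits the cyclin D-dependent kinases CDK4 and CDK6. All 6 arrays are of this 1 line, with no untreated culture, other dose or other time analysed here.

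Caveolins are small hairpin proteins that oligomerise in the inner leaflet and, with the cavins, coat the flask-shaped pits called caveolae. Caveolae are abundant in endothelium, fat, muscle and fibroblasts, and lymphocytes usually have few or none. Flotillins insert into the inner leaflet too, form scaffolds in cholesterol-rich microdomains called lipid rafts, and gather at the cap of polarised T cells. EHD proteins are ATPases related to dynamin that form rings on membrane tubules. EHD2 sits at the neck of caveolae, EHD1 and EHD3 act on the recycling endosome, and EHD4 acts on early endosomes.

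The 2 genes with large differences, CAV1 and EHD3, are shown by the 250 bases before RefSeq transcription starts in GRCh38.p14, since the contrast was measured on their transcripts. CAV1 lies on chromosome 7 beside CAV2, with 0 protein-coding genes between them, and EHD3 lies on chromosome 2. Capitals mark the GC box GGGCGG or its reverse complement CCGCCC, searched on both strands.
CAV1, first start, chr7:116524759-116525008, plus strand: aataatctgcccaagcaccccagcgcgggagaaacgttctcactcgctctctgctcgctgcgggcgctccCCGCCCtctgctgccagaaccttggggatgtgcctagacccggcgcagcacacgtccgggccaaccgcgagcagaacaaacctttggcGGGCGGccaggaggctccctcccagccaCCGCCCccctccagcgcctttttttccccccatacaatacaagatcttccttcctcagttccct
CAV1, a later start, chr7:116526112-116526361, plus strand: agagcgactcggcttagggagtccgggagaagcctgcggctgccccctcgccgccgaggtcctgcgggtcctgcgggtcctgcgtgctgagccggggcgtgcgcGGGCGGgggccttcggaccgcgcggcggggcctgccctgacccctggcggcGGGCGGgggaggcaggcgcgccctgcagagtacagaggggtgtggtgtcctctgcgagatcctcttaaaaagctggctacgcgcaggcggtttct
EHD3, chr2:31233902-31234151, plus strand: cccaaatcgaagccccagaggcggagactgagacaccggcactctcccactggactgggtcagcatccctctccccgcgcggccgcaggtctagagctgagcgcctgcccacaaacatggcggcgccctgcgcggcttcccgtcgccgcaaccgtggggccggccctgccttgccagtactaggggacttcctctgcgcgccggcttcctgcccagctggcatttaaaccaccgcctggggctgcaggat

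The first CAV1 window holds 3 GC boxes, the later one 2, and the EHD3 window 0, where 42.6% of 35116 promoter windows of the same length hold at least 1. The letters TTTCCCGC, TTTCGCGC, TTTGCCGC and TTTGGCGC, which spell the E2F consensus, were searched on both strands as well. They were in 0 of the 12 windows of the 8 members, against 2.79% of all windows. The cell cycle homology region TTTGAA was in 1 EHD1 window, against 13.3% of all windows. The TATA box TATAAA was in the other EHD1 window, against 10.7% of all. Matches of different motifs do not overlap in these windows, and a match or its absence describes these letters only.

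The arrays were close in scale and RNA measures. Their median intensity over 54675 probe sets lay between 49.1 and 54.3. The trimmed mean lay between 287 and 294 with vehicle and between 282 and 285 with PD0332991, so the groups did not overlap on it. The ratio of the 3′ to the 5′ control probe set lay between 0.935 and 0.973 for GAPDH and between 2.31 and 2.61 for ACTB. Pearson r across genes, which are not independent replicates, was 0.993 to 0.996 within a group and 0.976 to 0.979 between groups. The treatment showed in MKI67, the proliferation marker Ki-67, whose vehicle mean was 3187 ± 12.5 and whose PD0332991 mean was 258 ± 44.8 (SD, n = 3 each), and in CCNA2, cyclin A2, at 3218 ± 142 and 437 ± 37.5. The 8 T lineage markers had means between 267 for CD7 and 7861 for CD3D.

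Of the 8 genes, taken on the probe set with the highest mean, 1 was past an adjusted p of 0.05 on the higher side (EHD3) and 1 on the lower side (CAV1) in limma, where 29.3% of all genes were past it, 15.6% higher and 13.6% lower. The arrays of the 2 groups did not overlap for 3 of the 8, CAV1, FLOT1 and EHD3, against 43% of all genes. The choice of the family used this contrast, so nothing is read from these counts. The other 6 genes had log2 fold changes between −0.22 and 0.13. All fold changes are differences of log2(intensity + 16), which understates the change of dim genes, and the median over all genes was 0.01.

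**Figure D1:**
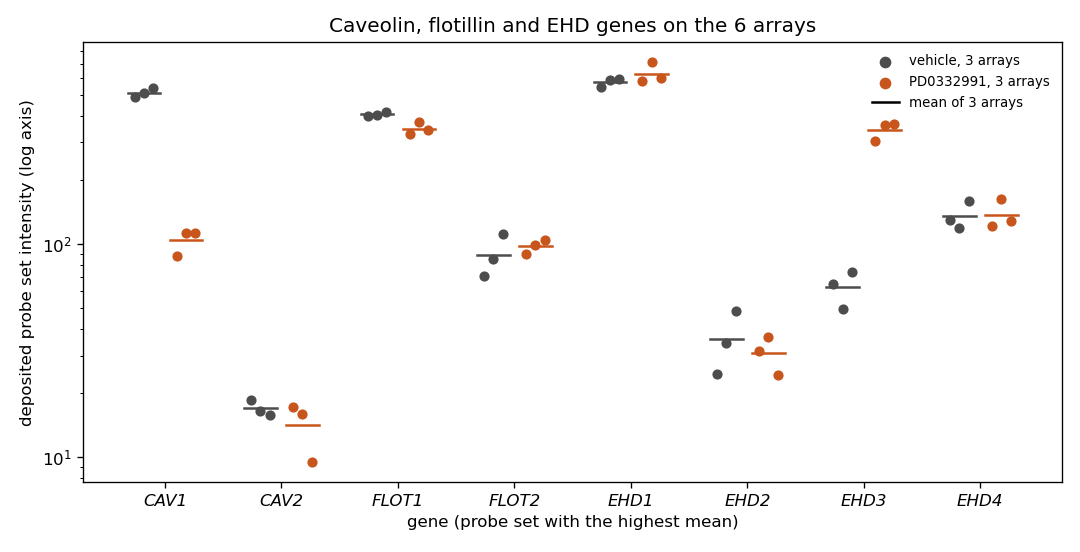
Deposited intensity (log axis) of each of the 8 genes on its probe set with the highest mean, with 1 point per array, grey for vehicle and orange for PD0332991, and a bar at the mean of 3 arrays. CAV1 spans 490 to 541 with vehicle and 87.8 to 113 with PD0332991, EHD3 went from 49.4 to 73.9 up to 303 to 366, and the groups of CAV2, FLOT2, EHD1, EHD2 and EHD4 overlap; probe sets differ in brightness, so heights are compared only within a gene.

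CAV1, the main structural protein of non-muscle caveolae, was lower on every treated array. Its brightest probe set, 212097_at, read 490, 509 and 541 with vehicle and 87.8, 113 and 113 with PD0332991. The lowest vehicle array was thus well above the highest treated array. The means were 513 ± 25.7 and 104 ± 14.4 (SD, n = 3 each), which is a log2 fold change of −2.14 (SE 0.10), or 4.42-fold. The ratio of the mean intensities without the pseudocount was 4.92. Among 19775 genes, 136 had a larger decrease. A smaller share of cells with CAV1 RNA and less of it in each cell cannot be told apart in RNA of whole cultures.

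The other CAV1 probe set, 203065_s_at, gave nearly the same size of difference. It read 379, 367 and 367 with vehicle and 65.2, 78.0 and 86.1 with PD0332991, or a log2 fold change of −2.07 (SE 0.10). Both CAV1 probe sets therefore had groups far apart, and their vehicle arrays were tight.

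CAV2, the partner that forms hetero-oligomers with caveolin-1, stayed at the dim end of the scale in both groups. Its brightest probe set, 203323_at, read 18.6, 16.4 and 15.8 with vehicle and 17.2, 15.9 and 9.49 with PD0332991. The groups overlap, and the log2 fold change was −0.13 (SE 0.11). The other 2 probe sets, with group means between 6.78 and 13.1, were at 0.07 and 0.24 and overlapped too. All 3 had a mean below every array's median intensity, and the files carry no detection calls, so a low level and background cannot be told apart for CAV2. The array therefore gives no measure of whether the neighbour of CAV1 on chromosome 7 changed with it.

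FLOT1, one of the flotillin scaffold proteins, was slightly lower on all of its probe sets. On 208749_x_at it read 397, 403 and 417 with vehicle and 328, 375 and 341 with PD0332991. The groups do not overlap, though the highest treated array comes close to the lowest vehicle array. The means were 406 ± 10.2 and 348 ± 24.5 (SD, n = 3 each), which is a log2 fold change of −0.22 (SE 0.07), or 1.16-fold. The probe set 210142_x_at, nearly as bright, read 395, 396 and 402 against 311, 325 and 313, a log2 fold change of −0.32 (SE 0.06). The dimmer probe sets 208748_s_at and 213819_s_at had −0.27 (SE 0.10) and −0.56 (SE 0.14), both with a mean below every array's median. All 4 FLOT1 probe sets had groups that do not overlap, against 36.7% of all probe sets. In the fit over all probe sets 2 of the 4 were past the threshold, against 21% of all. The choice of the family used this contrast, so nothing is read from these counts.

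FLOT2, the other flotillin, showed no separation of the groups. On 201350_at it read 71.0, 84.8 and 112 with vehicle and 89.8, 99.2 and 105 with PD0332991. The treated arrays lie inside the range of the vehicle arrays, at a log2 fold change of 0.13 (SE 0.15). The second probe set, 211299_s_at, was dim, with means of 20.3 and 27.7 and a log2 fold change of 0.31 (SE 0.24).

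EHD3, an EHD protein of the recycling endosome and the route from early endosome to Golgi, was higher on every treated array on its brighter probe sets. On 218935_at it read 65.1, 49.4 and 73.9 with vehicle and 303, 361 and 366 with PD0332991. The lowest treated array is far above the highest vehicle array. The means were 62.8 ± 12.4 and 344 ± 35.1 (SD, n = 3 each), which is a log2 fold change of 2.20 (SE 0.14), or 4.59-fold, with a ratio of mean intensities of 5.47. Among 19775 genes, 9 had a larger increase.

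The other EHD3 probe sets differed from it in size and in sign. On 230740_at it read 38.7, 32.9 and 69.7 with vehicle and 123, 107 and 116 with PD0332991, or a log2 fold change of 1.10 (SE 0.21). These groups do not overlap either, and vehicle replicate 3 is the highest of the vehicle arrays on both probe sets. On 241267_at, at 23.8, 23.3 and 24.6 against 17.0, 13.8 and 21.9, EHD3 was at −0.26 (SE 0.10), with groups that do not overlap in the opposite direction and a mean below every array's median. The mean of the 3 probe sets gave a log2 fold change of 1.01. Which transcript parts these probe sets match was not analysed here.

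EHD1, which acts on the recycling endosome as EHD3 does, differed between groups by less than its spread on the brightest probe set. On 209039_x_at it read 546, 586 and 592 with vehicle and 580, 711 and 600 with PD0332991. The groups overlap. Their means were 575 ± 24.8 and 630 ± 70.7 (SD, n = 3 each), at a log2 fold change of 0.12 (SE 0.09). The probe sets 208112_x_at and 209038_s_at were at 0.19 and −0.05. On 2 of the 5 probe sets the groups do not overlap, both with PD0332991 higher, against 36.7% of all probe sets in either direction. Nothing is read from that count. One is 222221_x_at, with 382, 441 and 426 against 459, 574 and 477 and a log2 fold change of 0.26 (SE 0.11). The other is the dimmer 209037_s_at, with 62.4, 62.4 and 95.6 against 100, 120 and 136 and a log2 fold change of 0.60 (SE 0.17).

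EHD2, the ATPase of the caveolar neck, was dim. On 45297_at it read 24.5, 34.4 and 48.7 with vehicle and 31.7, 36.5 and 24.2 with PD0332991, groups that overlap, at a log2 fold change of −0.13 (SE 0.19). On 205341_at it was at −0.37 (SE 0.15), with means of 32.8 and 21.6. The third, 221870_at, is listed at 1 on all 6 arrays and carries no information on the contrast.

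EHD4, the EHD protein of early endosomes, had the most probe sets and the smallest difference. On 209536_s_at it read 129, 119 and 159 with vehicle and 121, 162 and 129 with PD0332991, or a log2 fold change of 0.02 (SE 0.14). The other 6 probe sets ran from −0.27 to 0.40, and 5 of the 7 had means below every array's median. The groups of all 7 overlap, where those of 36.7% of all probe sets do not.

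Over all 29 probe sets, 2 were past the threshold on the higher side, both of EHD3, and 4 on the lower side, 2 each of CAV1 and FLOT1, where 21% of all 54613 probe sets were past it, 10.7% higher and 10.2% lower. The groups did not overlap for 11 of the 29, against 36.7% of all probe sets, and 15 of the 29 had means below every array's median intensity. Those 15 include all of CAV2 and EHD2.

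**Figure D2:**
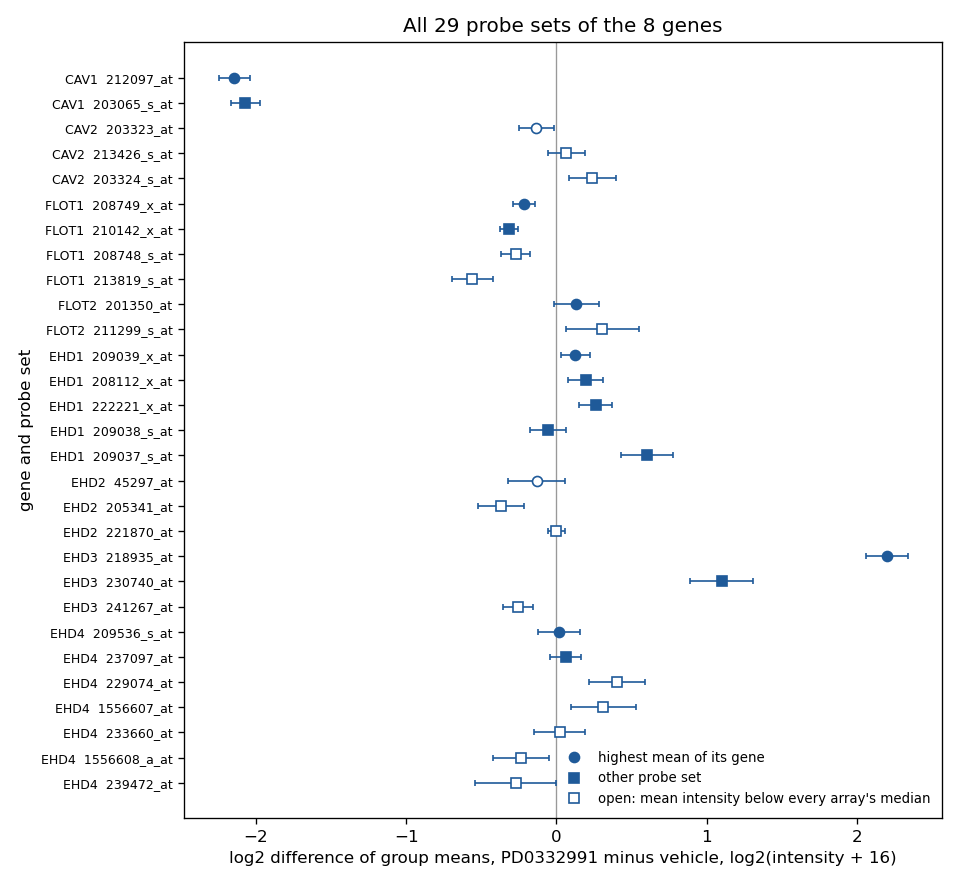
Log2 difference of the group means (PD0332991 minus vehicle, log2(intensity + 16)) for each of the 29 probe sets, with bars of 1 standard error from limma; circles mark the probe set with the highest mean of its gene, squares the others, and open symbols a mean intensity below every array's median. Both CAV1 points lie near −2.1, the EHD3 points lie at 2.20, 1.10 and −0.26, and all 4 FLOT1 points lie left of 0.

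**Figure D3:**
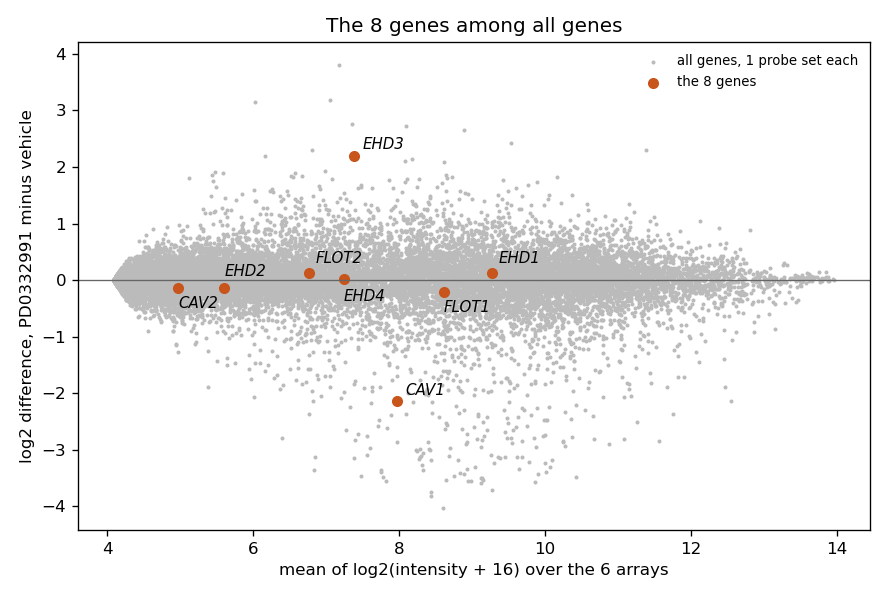
Log2 difference (PD0332991 minus vehicle) against the mean of log2(intensity + 16) over the 6 arrays for 19775 genes in grey, with the 8 genes in orange. CAV1 lies at −2.14 with 136 genes below it, EHD3 at 2.20 with 9 genes above it, and the other 6 lie between −0.22 and 0.13.

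The genes whose profiles lay nearest to CAV1 and EHD3 were taken by the Euclidean distance over the 6 arrays, after subtracting each gene's mean over the vehicle arrays, among 9886 brighter genes. Nearest to CAV1 were H2AX, the histone variant phosphorylated at DNA breaks, at a distance of 0.14, WEE1, the kinase that restrains CDK1, at 0.18, and GINS1, a subunit of the replicative helicase, at 0.19. Their log2 fold changes were −2.07, −2.06 and −2.21, beside −2.14 for CAV1. Nearest to EHD3 were CTSO, cathepsin O, at 0.39, CCND2, cyclin D2, at 0.47, and RBM47, an RNA-binding protein, at 0.47. Their log2 fold changes were 2.08, 2.31 and 2.20, beside 2.20 for EHD3. RBM47 had a mean of 17.7 with vehicle and 137 with PD0332991, so it was dim in the vehicle group. It passed the filter only through the treated arrays, as did EHD3 itself, at 62.8 and 344. The vehicle mean of RBM47 lay near the pseudocount, which understates the change of dim genes. Its likeness to EHD3 in size therefore depends on the pseudocount. The distance rests on 6 arrays in 2 groups and includes the group difference, so it is a description of likeness only.

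Caveolin RNA is a marker of stromal and endothelial cells in tissue, so markers of such cells were read on the same arrays. The 6 fibroblast markers summed to 222 to 262 with vehicle and 205 to 237 with PD0332991, with LUM lowest at a mean of 7.63 and DCN highest at 69.0. The 6 endothelial markers summed to 1353 to 1445 with vehicle and 1978 to 2052 with PD0332991. Nearly all of that was PECAM1, which T cells also express, at 1301 ± 51.0 and 1912 ± 56.2 (SD, n = 3 each), and CDH5, the endothelial cadherin, was at 3.85 and 7.38. The 4 myeloid markers summed to 144 to 158 and 132 to 147. The 3 measured B lineage markers summed to 324 to 397 and 550 to 721, most of it CD79A. Of the 6 fibroblast markers 0 passed limma's threshold, against 29.3% of all genes. At an unadjusted p under 0.05, 1 was lower, COL3A1 at 18.9 and 11.6, where 3581 of 19775 genes were lower. Of the endothelial markers 1 was higher in limma, PECAM1, of the B lineage markers 1, CD79A, and 0 of the myeloid markers passed. The part of any of these markers in the CAV1 difference was not tested.

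Among the 12 protein partners of caveolae, limma called 1 higher and 2 lower, with a median log2 fold change of −0.05. That count is near the share of all genes past the threshold, 29.3%, and nothing particular to these partners is read from it. The 4 cavins, which coat caveolae together with caveolin, had group means between 4.38 and 52.1. CAVIN1, required for caveolae, was at 4.38 ± 1.12 and 5.62 ± 1.46 (SD, n = 3 each), and CAVIN3 was at 21.4 ± 6.35 and 52.1 ± 28.1. CAV3, the muscle caveolin, was at 61.3 and 42.0, a log2 fold change of −0.42 (limma adjusted p = 0.027). These means lie near the arrays' medians of 49.1 to 54.3, and the filter on dim genes removed CAV3. A low level and background cannot be told apart for CAV3 or the cavins. The PACSINs, F-BAR proteins that bind EHDs and bend membrane, went opposite ways. PACSIN2, the widely expressed member that acts at caveolae, fell by 0.59 (adjusted p = 0.0012), and PACSIN1, known mainly from neurons, rose by 0.57 (adjusted p = 0.0025). The adjusted p of CAV3 was above 0.05 when vehicle replicate 1 (0.0922) or 3 (0.0719), or PD0332991 replicate 2 (0.0599) or 3 (0.0795), was left out. PACSIN2 did not pass with the mean of its probe sets, at −0.25 (0.0951), or without _x_at and _s_at probe sets, at −0.31 (0.140). CAVIN3 was past the threshold without PD0332991 replicate 1.

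Flotillins share the SPFH domain with the stomatins, prohibitins and erlins. Among the 8 measured, 1 rose and 3 fell in limma while 4 stayed short of the threshold, against 15.6% of all genes higher and 13.6% lower, and their median was −0.17. The erlins, which line raft-like domains of the endoplasmic reticulum, went opposite ways. ERLIN1 fell from 1084 ± 15.0 to 706 ± 42.3 (SD, n = 3 each), which is a log2 fold change of −0.61 (limma adjusted p = 9.3e-04), and ERLIN2 rose by 0.29 (adjusted p = 0.012). STOML2, a mitochondrial stomatin-like protein, fell by 0.37 (adjusted p = 0.021) and STOML1 by 0.22 (adjusted p = 0.047). The prohibitin genes PHB1 and PHB2 were at −0.15 and −0.19, short of it. Without _x_at and _s_at probe sets ERLIN2 was at −0.21 (0.0755). The adjusted p of STOML1 was above 0.05 whichever 1 of the 6 arrays was left out (0.0706 to 0.139). That of STOML2 was above it when vehicle replicate 1 (0.0750) or 2 (0.0734), or PD0332991 replicate 1 (0.0503) or 3 (0.0575), was left out.

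Genes of a list of lymphocyte membrane adaptors and raft-linked proteins changed in both directions. They are called raft adaptors below, and whether each product lies in rafts was not examined here. Among the 10 genes, 4 rose and 2 fell in limma while 4 stayed short of the threshold, against the same 15.6% and 13.6% of all genes, and their median was 0.19. LAX1, a transmembrane adaptor that dampens receptor signalling, rose from 400 ± 9.92 to 1218 ± 28.5 (SD, n = 3 each), which is a log2 fold change of 1.57 (limma adjusted p = 2.4e-05). LAT, the scaffold of proximal T cell receptor signalling, rose by 0.48 (adjusted p = 0.0060), MAL, a raft tetraspan protein, by 0.39 (adjusted p = 0.012) and PAG1, which recruits the kinase CSK to rafts, by 0.38 (adjusted p = 0.0033). The membrane-actin linker EZR fell by 0.25 (adjusted p = 0.033) and the adaptor LIME1 by 0.30 (adjusted p = 0.0497). The adjusted p of LIME1 was above 0.05 whichever 1 of the 6 arrays was left out (0.0605 to 0.116), and that of EZR whichever was left out except vehicle replicate 3 (0.0660 to 0.105). Of the 8 T lineage markers, 5 were higher and 0 lower in limma, against 15.6% and 13.6% of all genes. The counts were the same at an unadjusted p under 0.05, where 4110 of 19775 genes were higher and 3581 lower. The part of these markers in the values of the adaptors was not tested.

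Among the 23 EHD partners and genes of the recycling endosome, 2 were higher, 3 lower and 18 short of the threshold in limma, against 29.3% of all genes past it in either direction, and their median was −0.05. RAB11FIP1, an effector that binds RAB11 on recycling endosomes, rose from 2226 ± 40.2 to 3663 ± 117 (SD, n = 3 each), which is a log2 fold change of 0.71 (limma adjusted p = 2.9e-04). NUMB, an endocytic adaptor that binds EH domains, rose by 0.59 (adjusted p = 0.0038). The SNARE gene SNAP29, whose product binds EHD1, fell by 0.47 (adjusted p = 0.0012), EHBP1L1, an EHD1-binding protein, by 0.53 (adjusted p = 0.018), and the small GTPase gene ARF6 by 0.32 (adjusted p = 0.0069). MICALL1, which recruits EHD1 to tubules, was at 0.12, and RAB11A, the core GTPase of this compartment, at −0.09. TFRC, the transferrin receptor and its classic cargo, was at −0.07, and none of these 3 passed. SNAP29 was at 0.21 (0.245) without _x_at and _s_at probe sets and at −0.07 (0.534) with the mean of its probe sets. The adjusted p of EHBP1L1 was above 0.05 when either vehicle replicate 1 (0.0545) or PD0332991 replicate 2 (0.0560) was left out, and with the mean of its probe sets (0.0585).

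Among the other proteins with EH domains, 5 genes were measured, of which limma put 1 higher and 1 lower, where 29.3% of all genes were past the threshold, and their median was −0.20. The intersectins, scaffolds of clathrin-mediated uptake, had opposite signs. ITSN1 fell from 305 ± 19.1 to 187 ± 29.3 (SD, n = 3 each), which is a log2 fold change of −0.67 (limma adjusted p = 0.0083), and ITSN2 was at 0.25 (adjusted p = 0.038). The adjusted p of ITSN2 was above 0.05 whichever 1 of the 6 arrays was left out (0.0653 to 0.123), and it was at −0.40 (0.412) without _x_at and _s_at probe sets. ITSN1 was at −0.12 (0.322) with the mean of its probe sets.

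Clathrin-coat genes serve a route of uptake that does not use caveolae. In limma 0 of the 13 measured rose, 1 fell and 12 stayed short, while 1 was higher and 2 lower at an unadjusted p under 0.05, and their median was −0.11. Of all genes, 15.6% were higher and 13.6% lower at the adjusted threshold. At the unadjusted one, 4110 of 19775 genes were higher and 3581 lower. AP2S1, the small subunit of the AP2 adaptor, fell by 0.34 (adjusted p = 0.018), which was above 0.05 when either vehicle replicate 1 (0.0569) or PD0332991 replicate 3 (0.0593) was left out. The heavy chain CLTC was at 0.15 and the light chain CLTA at −0.24, both short of the threshold.

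**Figure D4:**
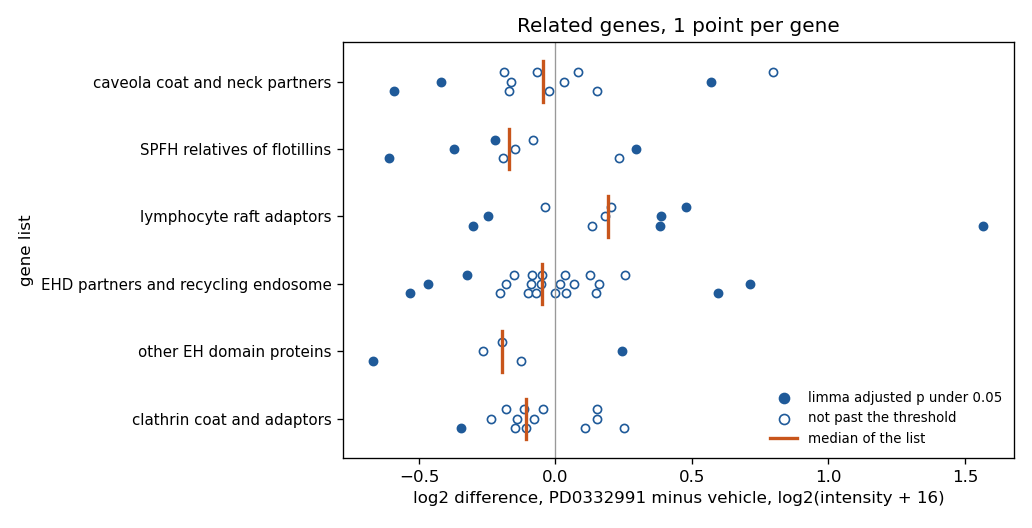
Log2 difference (PD0332991 minus vehicle) of each gene in the 6 related lists, 1 point per gene, filled where limma's adjusted p was under 0.05, with a bar at each list's median. LAX1 at 1.57 is the point farthest right, and the list medians lie between −0.20 and 0.19.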

How the data were processed

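Biotin-labelled material prepared from total RNA of 6 cultures was hybridised to one-colour Affymetrix arrays, per the labels' protocols. The authors deposited probe set intensity values, already summarised and on a common linear scale. Their summarisation, background correction and scaling are not given in the sources used here. If the arrays were scaled to one another, a value is relative to its array's signal. Values were used as log2(intensity + 16) with no further normalization. The 62 control probe sets were left out. Symbols came from the platform annotation of 2016, which gave 1 symbol for 41091 probe sets, several for 1801 and none for 11721, updated by gene ID through RefSeq GRCh38.p14. A gene was represented by its probe set with the highest mean. PD0332991 was set against vehicle in limma 3.58.1 under R 4.3.3 (lmFit, eBayes, two-sided, 4 residual degrees of freedom), adjusted by Benjamini-Hochberg over all 19775 genes, or all 54613 probe sets, at 0.05. The code was tested on simulated data. Members and lists were chosen with earlier results of these data known. Named are all members, related genes past the threshold, MKI67, CCNA2 and the 3 nearest profiles to CAV1 and EHD3. Levels of partners that did not pass, and the other marker genes, were chosen after their values were seen. The listed genes REPS1 and EPN2 were not analysed here, and items withheld from this text are not reported. Promoter windows came from RefSeq and covered 8 of 8 members. Alternatives were the pseudocount, normalization, a filter on dim genes, probe set choice, eBayes options, a replicate block and each array left out. The filter kept genes whose higher group mean lay above the median over all genes. Figures were drawn with matplotlib 3.10.9.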

Additional observations from a re-analysis of the deposited data

How the results depend on the processing

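Over 15 alternatives the log2 fold changes of CAV1 ran from −2.30 to −1.78 and those of EHD3 from 1.01 to 2.45, which is a description, since the family was chosen by these values. With FLOT1 also past the threshold, 2 members were lower with a pseudocount of 64, with the mean of probe sets, with trend and robust, and among brighter genes. Without _x_at and _s_at probe sets, ERLIN2 was at −0.21, SNAP29 at 0.21 and ITSN2 at −0.40, opposite to their main sign. That setting left 3596 probe sets higher and 3260 lower, with fewer probe sets tested. FLOT1, EHD1, CAV3, STOML2, MAL and AP2S1 had no probe set left in it, so they could not be called. It gave 2 caveola partners higher and 0 lower, 0 SPFH genes higher and 1 lower, and 0 raft adaptors lower. Clathrin genes there were 1 higher and 0 lower. Other EH domain genes higher numbered 0 there, with a pseudocount of 1, with median centring, with the mean of probe sets (0 lower as well) and with the replicate block. Raft adaptors lower numbered 1 with a pseudocount of 1, quantile normalization, median centring, brighter genes, trend and robust, or the block. Clathrin genes higher numbered 1 with a pseudocount of 64, quantile normalization, brighter genes, the mean of probe sets, or trend and robust. Clathrin genes lower numbered 2, and EHD partners lower 5, with a pseudocount of 64, brighter genes, or trend and robust. Caveola partners lower numbered 1 among brighter genes and with the mean of probe sets, and 2 were higher with trend and robust or the block.

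The replicate numbers did not meet the rule for pairing, since the deviations of same-numbered arrays correlated at 0.121, 0.0825 and 0.0892 and the rule asks for over 0.1 in each, although 6 of 6 arrays correlated best with their own number. With the replicate block, 2520 genes were higher and 2273 lower, with 1 member each way, 1 SPFH gene lower and 0 clathrin genes lower. With 1 array left out, the genes numbered 2170 to 3171 higher and 2081 to 2518 lower, against 3088 and 2698. Probe sets numbered 3564 (without vehicle replicate 1; 3621 without vehicle replicate 2) to 5966 higher and 3819 to 4915 lower, against 5857 and 5589. Members lower numbered 1 to 2, with 2 without PD0332991 replicate 2, where FLOT1 passed. Caveola partners numbered 1 to 2 higher and 1 to 2 lower, SPFH genes 1 to 2 lower, raft adaptors 0 to 1 lower, EHD partners 2 to 3 in either direction, other EH domain genes 0 higher, and clathrin genes 0 to 2 lower. Causes were not tested. Dim probe sets limit CAV2 and EHD2 most.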
